A study of Mus musculus with 12 samples.

Results

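This report describes the genes for the subunits of the nuclear RNA polymerases and for the Pol I transcription factors in hematopoietic stem cells (HSCs). The genes were chosen by symbol: every measured gene whose symbol starts with Polr1, Polr2 or Polr3, and the Pol I factors Taf1a, Taf1b, Taf1c, Taf1d, Ubtf and Rrn3. They came to 34 of the 22548 genes measured. They fall into 3 subunits of Pol I alone, 2 subunits shared by Pol I and Pol III, 6 Pol I factors, 8 Pol II subunits, 5 subunits common to all nuclear polymerases and 10 Pol III subunits. The set was drawn up because Polr1d was seen to be higher in CASIN-treated samples of these data, so the values of Polr1d in those samples are given as a description, and Polr1d is left out of the counts of genes that passed a test there.

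Pol I transcribes the ribosomal RNA precursor in the nucleolus, Pol II transcribes messenger RNAs, and Pol III transcribes transfer RNAs, 5S ribosomal RNA and other small RNAs. Each enzyme has a large and a second largest subunit that together form the active centre, an alpha-like pair of smaller subunits on which the enzyme assembles, a stalk, and a set of small subunits found in all of them. Pol I and Pol III use the same alpha-like pair, Polr1c and Polr1d, whereas Pol II uses Polr2c and Polr2j. Ubtf (upstream binding factor) binds ribosomal DNA, the SL1 complex with its subunits Taf1a to Taf1d binds the ribosomal DNA promoter, and Rrn3 (TIF-IA) ties Pol I to SL1. HSCs are mostly quiescent and are known for a low rate of protein synthesis, and Pol I and Pol III supply the RNAs of the ribosome.

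RNA-seq was performed on HSCs sorted from the bone marrow of C57BL/6 mice. Young HSCs were from mice aged 2 to 4 months (n = 4, replicates 2, 3, 4 and 5), aged HSCs from mice aged 20 to 26 months (n = 5, replicates 0, 2, 3, 4 and 5), and aged CASIN-treated HSCs from mice of the same ages as the aged group (n = 3, replicates 1, 2 and 3). CASIN, an inhibitor of the small GTPase Cdc42, was used at 5 µM. Per the labels, cells of every group, at least 200 per sample, were kept for 16 h at 3% O2 and 5% CO2 before lysis, so the untreated groups are cultured cells as well. Cells were pooled for each library, the young and aged mice came from different sources, and biological repeats started from different mice on different days per the methods, whereas the labels give no animal or day for a sample. The methods state a larger number of pooled cells than the minimum in the labels, and more repeats than the 3 treated samples here.

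The deposited values are log2 expression values that were quantile normalized. Every sample had the same highest value (16.1) and an upper quartile of 4.04 to 4.15. The lower part of the distribution differed, with 2535 to 16470 genes tied at the lowest value. Many genes share the lowest value of a sample, and the share of genes above it differed widely, from 27.0% to 42.9% in young, from 50.8% to 78.1% in aged and from 30.4% to 88.8% in aged CASIN-treated samples. The depth is unknown. The lowest value itself lay between 0 and 0.67. Of 9 HSC markers, 3 to 6 were above the lowest value in young, 5 to 9 in aged and 3 to 9 in aged CASIN-treated samples, and their summed log2 value was 22.7 to 33.5, 16.1 to 30.1 and 26.0 to 29.4. Meis1 was high in all 12 samples (6.54 to 8.53), whereas Kit and Ly6a, which encode proteins used for sorting, were at the lowest value in all 4 young samples. Of 16 markers of other blood cells, 0 to 5, 5 to 10 and 1 to 12 were above the lowest value, with sums of 10.3 to 33.2, 14.7 to 29.8 and 13.3 to 32.2. Their part in the results was not tested, and fewer cells that carry a transcript cannot be told apart from less RNA per cell in such bulk samples.

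Polr1d lies at chr5:147077050-147111597 on the plus strand (mm10, GENCODE M21) and has 3 protein coding transcripts. The pair below is shown because a value per gene cannot tell its products apart: both start in the same exon and then use different exons. The capitals mark the 26 coding bases they share, and the first 90 coding bases are given 5′ to 3′. Polr1d-201 has 399 coding bases before the stop codon (133 codons) in 2 coding exons and encodes the subunit of Pol I and Pol III. Polr1d-202 has 378 (126 codons) in 3 coding exons and encodes a different protein after the shared start.
Polr1d-201: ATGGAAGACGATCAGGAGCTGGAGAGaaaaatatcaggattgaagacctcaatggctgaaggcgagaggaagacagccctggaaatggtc
Polr1d-202: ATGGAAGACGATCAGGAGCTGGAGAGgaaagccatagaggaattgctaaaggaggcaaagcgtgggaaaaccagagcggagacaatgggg

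In aged CASIN-treated HSCs, the log2 value of Polr1d was 5.93, 4.94 and 6.05 in replicates 1, 2 and 3. In aged HSCs it was 1.90 in replicate 2 and 1.0 in replicate 5, and it was listed at the lowest value in replicates 0, 3 and 4 (0.066, 0.23 and 0.22). In young HSCs it was 2.03 in replicate 4 and listed at the lowest value in replicates 2, 3 and 5 (0.67, 0.48 and 0.65). All aged CASIN-treated samples were therefore above all samples of the other groups, and Polr1d was in the top 25% of genes in these 3 samples and in no other. On the log2 scale, the mean of the treated samples exceeded that of aged HSCs by 4.96 (SE 0.57) and that of young HSCs by 4.68 (SE 0.59). When the lowest value was set to 0.67 in every sample, the difference from aged HSCs was 4.66. The share of genes above the lowest value was 30.4%, 88.8% and 32.3% in the treated replicates 1, 2 and 3. Of the 34 genes, none above it was under 3.34 in replicate 1 or under 3.03 in replicate 3. In replicate 2, values reached down to 0.037 (Polr2d), and Polr1d was 4.94. With the share of genes above the lowest value as a covariate, the difference of Polr1d from aged HSCs moved by less than the SD within groups. The part of detection in the size of the Polr1d differences was not tested further. Between young and aged HSCs, Polr1d differed by 0.28 (SE 0.52, 95% confidence interval -0.88 to 1.43), which was within the spread between replicates (limma, Benjamini-Hochberg adjusted p = 0.914).

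The alpha-like partner Polr1c (chr17:46243920-46248054, minus strand) had another pattern. Its log2 value was 8.07 in young replicate 2 and 4.79 in young replicate 5 and was listed at the lowest value in the other young samples (0.48 and 0.43). In aged HSCs it was 1.80 in replicate 4 and at the lowest value elsewhere (0.066, 0.018, 0.23 and 0.16 in replicates 0, 2, 3 and 5). In aged CASIN-treated HSCs it was 0.63, 0.32 and 0.58, of which only the second was above the lowest value of its sample. The groups overlapped. Polr1c was 2.99 higher in young than in aged HSCs (SE 1.38, 95% confidence interval -0.05 to 6.03), which did not pass the threshold of 0.05, adjusted or unadjusted (limma, Benjamini-Hochberg adjusted p = 0.764). Both members of the pair were above the lowest value in 1 of 12 samples, 1 of them alone in 8 and neither in 3, and they were never in the top 25% together.

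**Figure D1:**
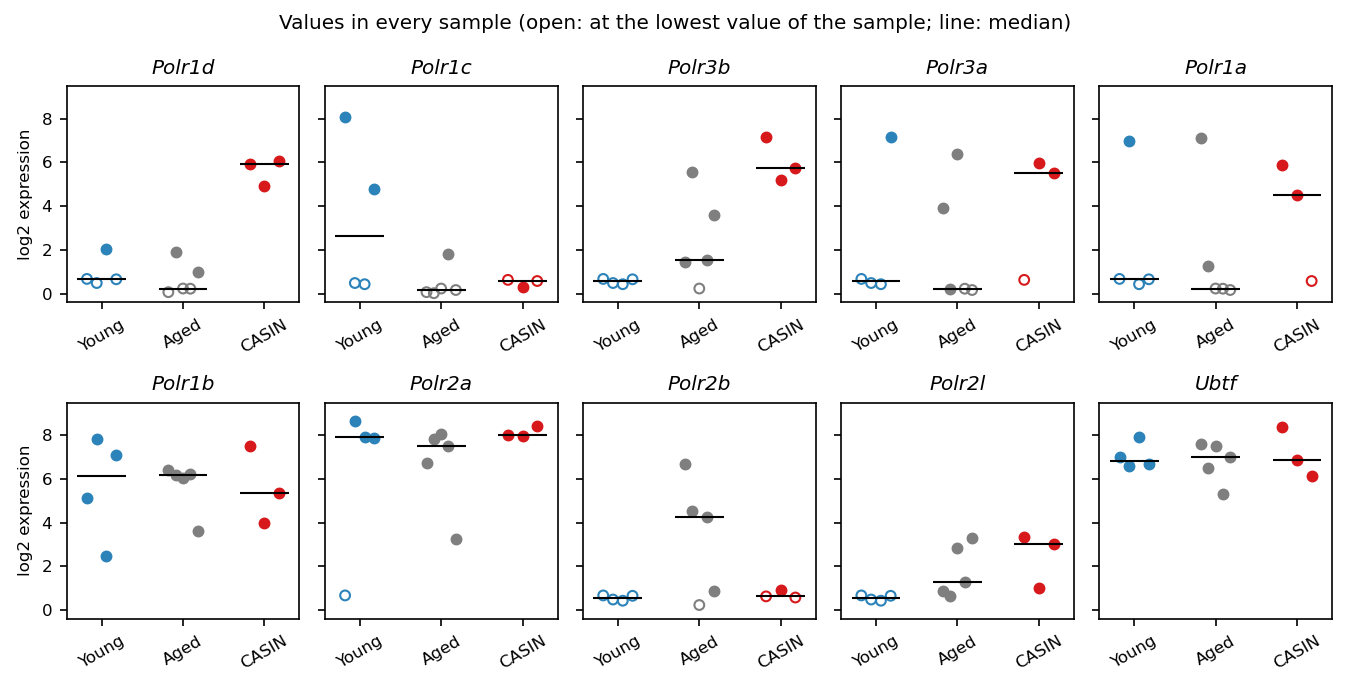
Log2 expression of 10 genes of the polymerases and of Pol I transcription in each sample, of which 4 were young, 5 aged and 3 aged and treated with CASIN. Each point is a sample, open points are at the lowest value of their sample, and lines are group medians; all 3 treated samples lie at 4.94 or above for Polr1d, whereas no other sample exceeds 2.03.

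The heat map of the genes shows how incomplete the detection of these essential enzymes was in these libraries. Above the lowest value were 6 to 13 of the 34 genes in young, 17 to 26 in aged and 11 to 32 in aged CASIN-treated samples, which is 30.9%, 64.1% and 57.8% of the values of each group. Over all genes, the means were 34.3%, 62.6% and 50.5%. Ubtf and Polr1b were above it in all 12 samples (5.88% of the 34 genes, against 9.5% of all genes). Of the 34 genes, 18 were above it in at least 6 samples (52.9%, against 51.4% of all genes). A gene at the lowest value is therefore not shown to be silent. The median over genes of the mean log2 value was 1.79 for the 34 genes and 1.68 for all genes.

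**Figure D2:**
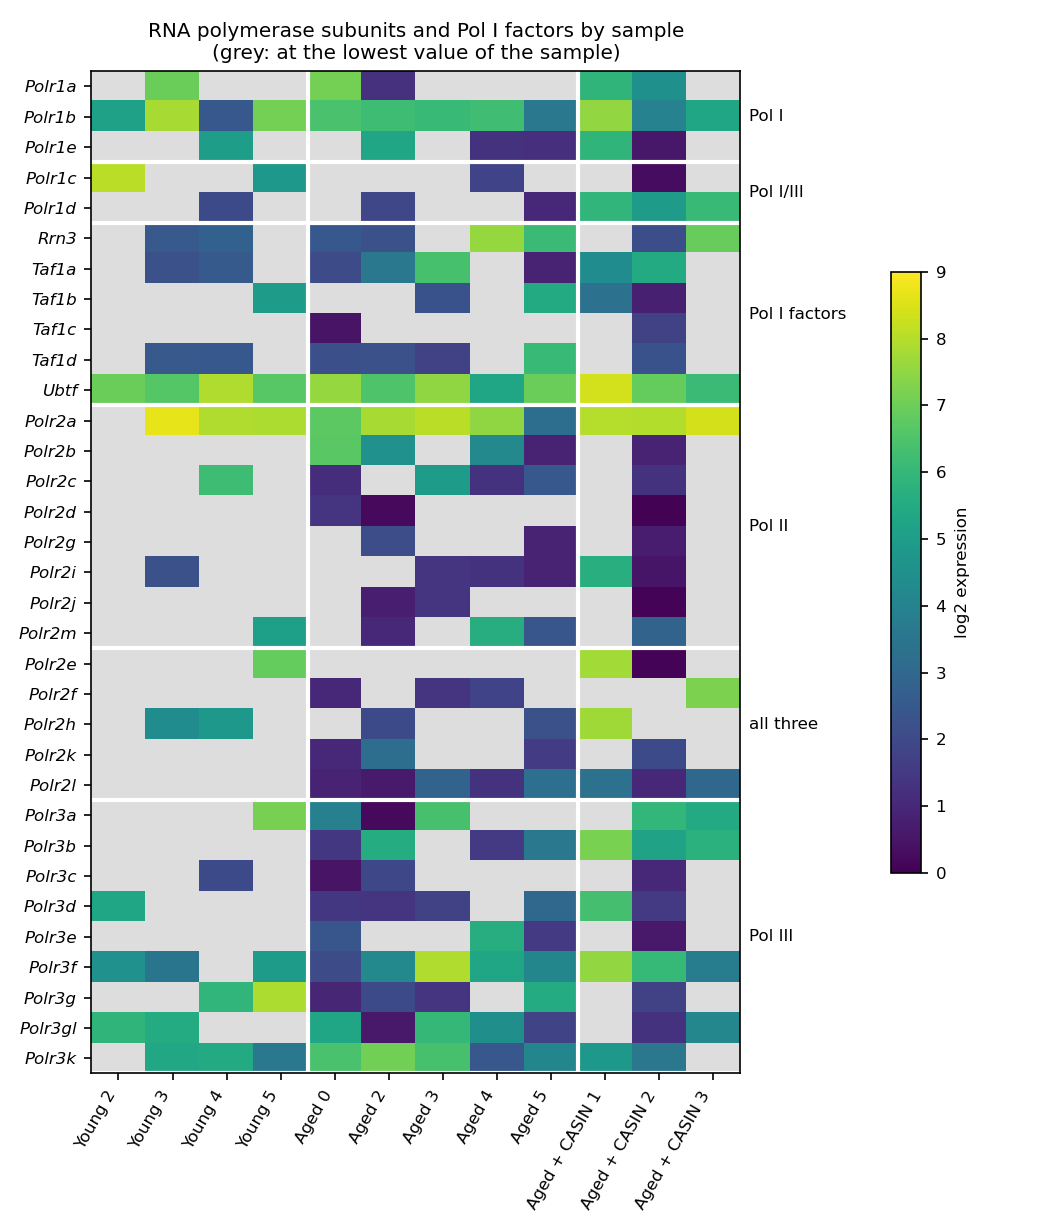
Log2 expression of 33 of the 34 genes (rows, by polymerase) in the 12 samples (columns, by group). Grey cells are at the lowest value of their sample; Ubtf and Polr1b are the only rows with none, and the young columns hold the most grey, with 6 to 13 of the 34 genes above the lowest value.

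A measure that depends less on the number of genes detected is the share of the 34 genes in the top 25% of all genes of the same sample, for which all genes together give 25%. It was 22.1% of the values in young, 24.1% in aged and 29.4% in aged CASIN-treated HSCs. By sample, 6 to 10 genes were in the top 25% in young, 7 to 9 in aged, and 14, 8 and 8 in the aged CASIN-treated replicates 1, 2 and 3. Replicate 1 of the treated group thus stood apart, and it was also the sample in which 8 of the 34 genes had their highest value. In samples with few genes detected, most of the 34 genes above the lowest value were also in the top 25%. These were 6 of 6 in young replicate 2 and 14 of 16 in treated replicate 1, against 8 of 32 in treated replicate 2. Over the samples, 5 genes were in the top 25% in more than 6 samples (Ubtf, Polr2a, Polr1b, Polr3f and Polr3k), 22 in 1 to 6 and 7 in none (Polr2d, Polr2g, Polr2j, Polr2k, Polr2l, Polr3c and Taf1c). Whether the deposited values are scaled to transcript length is not given in the sources used here, and the part of length in this order was not tested.

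**Figure D3:**
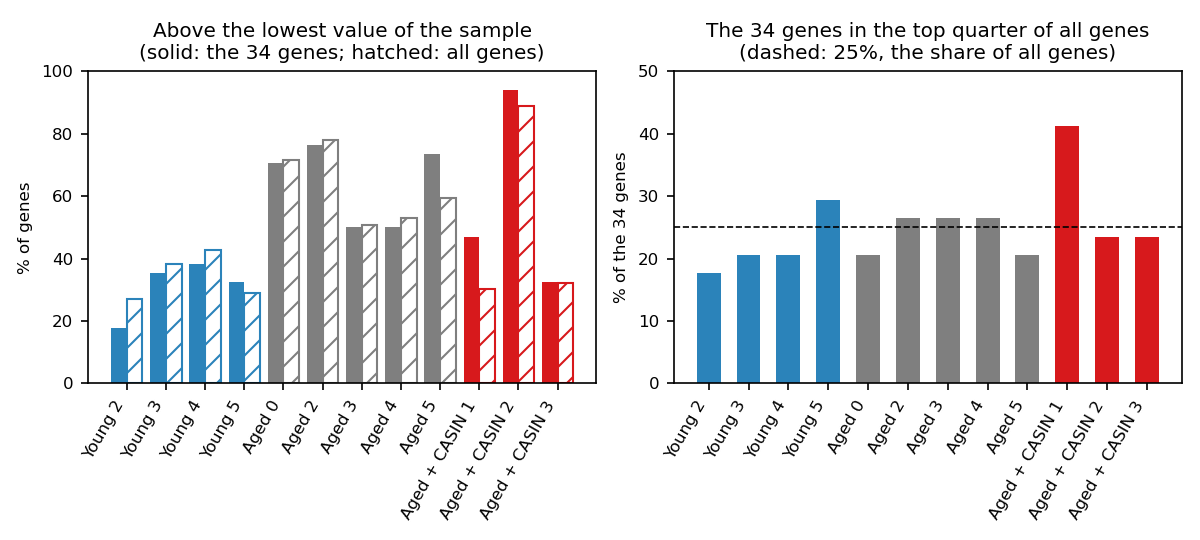
Left, the percentage of the 34 genes (solid) and of all 22548 genes (hatched) above the lowest value in each sample. Right, the percentage of the 34 genes in the top 25% of all genes of the sample, with the dashed line at the 25% of all genes; the bars move with the number of genes detected on the left, while on the right the aged CASIN-treated replicate 1 is the highest with 14 of 34 genes.

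Among the subunits of Pol I alone, Polr1b, the second largest, had the more even values. Its log2 value was 5.14, 7.81, 2.48 and 7.11 in young, 6.43, 6.20, 6.07, 6.23 and 3.62 in aged, and 7.53, 3.98 and 5.34 in aged CASIN-treated HSCs, in replicate order. The means of 5.64 ± 2.39 (SD, n = 4), 5.71 ± 1.18 (SD, n = 5) and 5.61 ± 1.79 (SD, n = 3) differed by less than the spread within each group. Polr1a, the largest subunit, was 6.98 in young replicate 3, 7.10 and 1.28 in aged replicates 0 and 2, and 5.90 and 4.50 in treated replicates 1 and 2, and it was at the lowest value in the other 7 samples. The groups overlapped for both genes. Both were in the top 25% together in 3 samples, 1 of each group, and 1 of them alone in 7. Polr1e, a subunit of the module attached to the core of Pol I, was above the lowest value in 6 samples, with a highest value of 5.87.

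Of the Pol I factors, Ubtf was in the top 25% of genes in all 12 samples, the only one of the 34 genes to be so. Its log2 value was 6.99, 6.61, 7.93 and 6.67 in young, 7.59, 6.51, 7.49, 5.30 and 6.98 in aged, and 8.38, 6.87 and 6.15 in aged CASIN-treated HSCs. The groups overlapped throughout. The means were 7.05 ± 0.61 (SD, n = 4), 6.78 ± 0.93 (SD, n = 5) and 7.13 ± 1.14 (SD, n = 3), and the difference between young and aged HSCs of 0.27 (SE 0.62, 95% confidence interval -1.09 to 1.63) did not pass the test (limma, Benjamini-Hochberg adjusted p = 0.927). Rrn3 was above the lowest value in 8 samples and reached 7.58 in aged replicate 4, 6.13 in aged replicate 5 and 6.91 in treated replicate 3. The SL1 subunits were patchier: Taf1a was above the lowest value in 8 samples, Taf1d in 7, Taf1b in 5 and Taf1c in 2, and the highest value among them was 6.40, for Taf1a in aged replicate 3. Exons of Taf1d hold snoRNA genes and exons of Taf1c overlap Dnaaf1 on the opposite strand, so their values may include other transcripts. The same holds for Polr1a, Polr2c, Polr2f, Polr2h, Polr2i, Polr2j and Polr3gl, whose exons also overlap those of genes on the opposite strand.

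For Pol II, Polr2a, the largest subunit with the C-terminal repeat domain, was among the highest of the genes described. Its log2 value was 8.66, 7.93 and 7.89 in young replicates 3, 4 and 5 and was at the lowest value (0.67) in young replicate 2. It was 6.73, 7.83, 8.06, 7.49 and 3.24 in aged and 8.01, 7.95 and 8.41 in aged CASIN-treated HSCs. The treated samples thus lay close together, within the range of the young samples and with 2 of 3 below the highest aged sample. The other 7 Pol II genes were above the lowest value in 3 to 6 samples each. They include the alpha-like pair Polr2c and Polr2j, detected together in 2 samples, and the stalk pair Polr2d and Polr2g, also detected together in 2, while none of these was in the top 25% with its partner in any sample.

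Polr2b, the second largest Pol II subunit (chr5:77310147-77349324, plus strand), was at the lowest value in all 4 young samples (0.43 to 0.67). In aged HSCs it was 6.70, 4.55, 4.24 and 0.89 in replicates 0, 2, 4 and 5 and at the lowest value (0.23) in replicate 3. In aged CASIN-treated HSCs it was 0.90 in replicate 2 and at the lowest value in the others (0.63 and 0.58). Replicates 0, 2 and 4 of the aged group were thus far above all other samples, and the groups still overlapped through aged replicate 3. Exons of Polr2b overlap those of Igfbp7 on the opposite strand, and the strand used in counting is not given in the sources used here; Igfbp7 was 2.92 in aged replicate 0, 1.84 in aged replicate 5 and young replicate 4, and at the lowest value in the other 9 samples.

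The 5 small subunits common to all nuclear polymerases, Polr2e, Polr2f, Polr2h, Polr2k and Polr2l, were above the lowest value in 15% of values in young, 52% in aged and 53.3% in aged CASIN-treated HSCs. Over all genes, the means were 34.3%, 62.6% and 50.5%. Polr2l was at the lowest value in all 4 young samples (0.43 to 0.67). It was 0.90, 0.65, 2.86, 1.30 and 3.30 in aged and 3.34, 1.02 and 3.03 in aged CASIN-treated HSCs, all above the lowest value of their samples. Of the others, Polr2e reached 6.86 in young replicate 5 and 7.74 in treated replicate 1, Polr2f 7.23 in treated replicate 3 and Polr2h 7.72 in treated replicate 1. None of the 5 was in the top 25% in any aged sample, against 3 of 20 values in young (15%) and 3 of 15 in aged CASIN-treated HSCs (20%). The 3 values in young were Polr2e in replicate 5 and Polr2h in replicates 3 and 4 (4.37 and 4.80), and other samples of the same groups were at or near the lowest value.

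Polr3b, the second largest subunit of Pol III (chr10:84622292-84727178, plus strand), was like Polr1d in that it was high in every aged CASIN-treated sample, with log2 values of 7.19, 5.20 and 5.74. It was at the lowest value in all 4 young samples (0.43 to 0.67). In aged HSCs it was 1.46, 5.58, 1.53 and 3.62 in replicates 0, 2, 4 and 5 and at the lowest value (0.23) in replicate 3. The treated samples were all above the young samples, whereas aged replicate 2 lay above treated replicate 2. The largest subunit, Polr3a, did not share this pattern: it was 7.17 in young replicate 5, 3.93, 0.22 and 6.40 in aged replicates 0, 2 and 3, and 5.97 and 5.52 in treated replicates 2 and 3, and it was at the lowest value in the other 6 samples. Both were in the top 25% together in treated replicates 2 and 3 and in no other sample. Exons of Polr3b overlap those of Gm17249 on the opposite strand, a noncoding RNA annotated to a bidirectional promoter. Gm17249 is not among the measured genes, so the values of Polr3b may include it.

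The other Pol III genes described ranged from Polr3f, above the lowest value in 11 samples, Polr3k in 10 and Polr3gl in 9 to Polr3c and Polr3e, each in 4. Polr3f, of the module that Pol III uses in initiation, was 3.51 to 4.96 in 3 young samples, 2.05 to 7.94 in aged and 3.82 to 7.55 in aged CASIN-treated HSCs. The paralogues Polr3g and Polr3gl occupy the same place in alternative forms of Pol III. They were in the top 25% one without the other in 8 samples and never together. Polr3g was highest in young replicate 5 (7.90) and Polr3gl in aged replicate 3 (5.98).

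The comparison of young with aged HSCs addresses what changes upon aging. No gene of the 34 passed at a Benjamini-Hochberg adjusted p of 0.05 (limma; 0.0177% of all genes did), and 1 passed at an unadjusted p of 0.05, which is 2.94% of the 34 genes against 5.33% of all genes (2.13% higher and 3.2% lower in young). That share is no higher than the background and is no result about these genes. The gene was Polr2b, 2.76 lower in young HSCs on the log2 scale (difference -2.76, SE 1.14, 95% confidence interval -5.29 to -0.24, limma, Benjamini-Hochberg adjusted p = 0.764). Its unadjusted p rose above 0.05 when any 1 young sample or aged replicate 0, 2 or 4 was left out, to at most 0.0749. With the lowest value set to 0.67 in every sample, no gene of the 34 had groups that did not overlap (0.341% of all genes higher and 1.61% lower did). The 34 genes were split evenly, with 17 higher and 17 lower in young, and their median difference was -0.04 against -0.02 for all genes (0.08 without young replicate 2 and 0.42 when centred, against 0.44 for all genes). Of all genes, 49.5% were higher in young. By polymerase, the median difference was 0.08 for Pol I, -0.06 for Pol II, -0.31 for the common subunits, -0.86 for Pol III and -0.45 for the Pol I factors. Among the Pol III subunits, Polr3b had a difference of -1.92 (SE 0.96) that did not pass (limma, Benjamini-Hochberg adjusted p = 0.764), and neither did the -1.24 (SE 0.67) of the common subunit Polr2l (limma, Benjamini-Hochberg adjusted p = 0.764).

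The comparison of aged CASIN-treated with aged HSCs addresses what the Cdc42 inhibitor changes in aged cells. The set was drawn up from this comparison, so its counts are a description from which nothing is read. Of the 33 genes other than Polr1d, 0 passed at a Benjamini-Hochberg adjusted p of 0.05 (limma; 0.0222% of all genes did). At an unadjusted p of 0.05, 1 passed (3.03%, against 4.4% of all genes, of which 2.48% were higher and 1.92% lower with CASIN), Polr3b, with a difference of 3.56 (SE 1.04). None of the 33 had groups that did not overlap (0.683% of all genes higher and 1.43% lower). The partner Polr1c differed by 0.05 (SE 1.5), Polr1a by 1.86 (SE 2.04), Polr2a by 1.45 (SE 1.73) and Polr3a by 1.85 (SE 2.06). Of the 33 genes, 17 were higher and 16 lower with CASIN, with a median difference of 0.05 against -0.04 for all genes. Of all genes, 48.4% were higher with CASIN. The median of all 34 genes, 0.09, was -0.12 with 1 common lowest value, -0.15 without treated replicate 1 and 0.69 over the genes above the lowest value in at least 6 samples, so no direction is read from it. By polymerase, the median was 0.71 for Pol I, -0.08 for Pol II, 1.75 for the common subunits, -0.45 for Pol III and 0.16 for the Pol I factors. The medians of Pol I and of the common subunits are the differences of Polr1e, high in treated replicate 1, and of Polr2f, high in treated replicate 3.

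The comparison of aged CASIN-treated with young HSCs uses the treated samples of the comparison above and the young samples of the first, so the comparisons are not independent. No gene of all 22548 passed at a Benjamini-Hochberg adjusted p of 0.05 (limma; 0% of all genes, 968 at an unadjusted p of 0.05). At the unadjusted p, 2 of the 33 genes other than Polr1d passed, which is 6.06% against 4.29% of all genes, both higher with CASIN (2.9% of all genes, with 1.39% lower). They were Polr3b and Polr2l, and the same genes were those of the 33 whose groups did not overlap when the lowest value was set to 0.67 in every sample (1.4% of all genes higher and 0.674% lower). Polr3b was 5.48 higher (SE 1.09, 95% confidence interval 3.07 to 7.89, limma, Benjamini-Hochberg adjusted p = 0.337), and its unadjusted p was at most 0.00285 when any 1 sample was left out. Polr2l was 1.90 higher (SE 0.77, 95% confidence interval 0.21 to 3.6, limma, Benjamini-Hochberg adjusted p = 0.9995), and its unadjusted p rose above 0.05 without young replicate 3 or 4 or treated replicate 1 or 3, to at most 0.120. All young samples were at the lowest value for both genes, so that the size of these differences depends on that value. Polr1c differed in the opposite direction to Polr1d, by -2.94 (SE 1.57, limma, Benjamini-Hochberg adjusted p = 0.9995). It did not pass at the unadjusted p either, other than without young replicate 3 or 4. Of the 33 genes, 20 were higher and 13 lower with CASIN, with a median difference of 0.14 against -0.09 for all genes. Of all genes, 45.3% were higher with CASIN. The median of all 34 genes, also 0.14, was -0.14 without treated replicate 1 and 1.17 over the genes above the lowest value in at least 6 samples. The 5 common subunits were all higher, with a median of 0.69. Among the treated samples, however, Polr2e and Polr2h were high in replicate 1 only (7.74 and 7.72) and Polr2f in replicate 3 only (7.23).

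**Figure D4:**
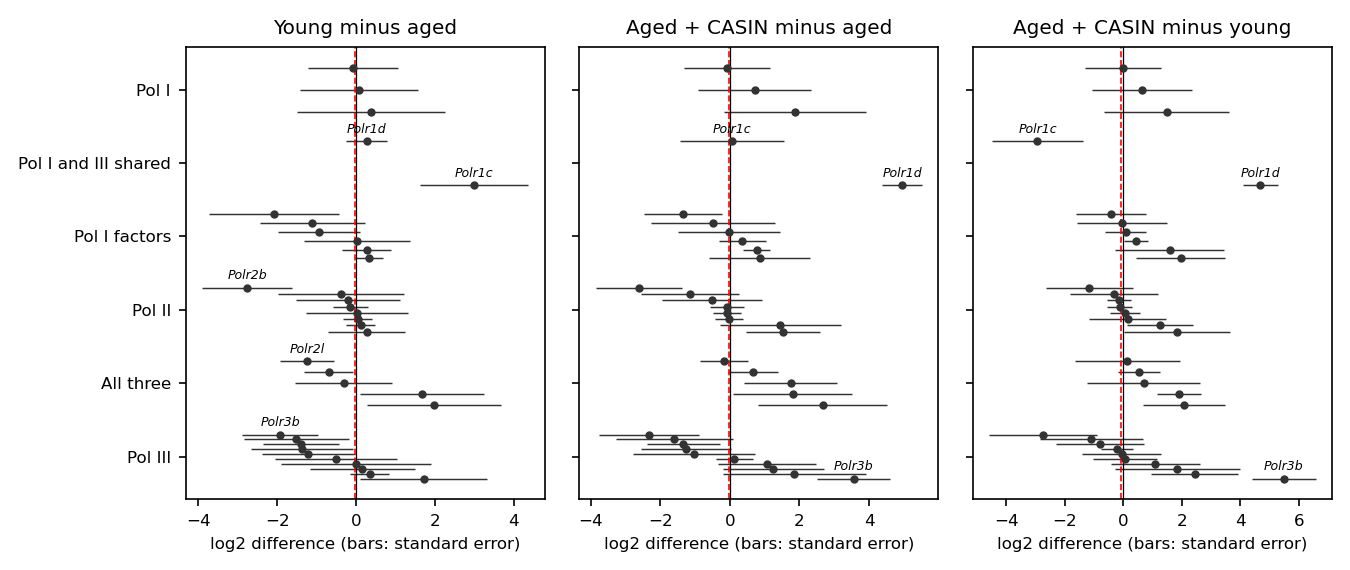
Log2 differences of the 34 genes, by polymerase, in the comparisons of young with aged, aged CASIN-treated with aged and aged CASIN-treated with young HSCs. Points are fitted differences, bars are standard errors, the solid line is 0 and the dashed red line the median of all genes; Polr1d (4.96 and 4.68) and Polr3b (3.56 and 5.48) lie farthest to the right in the comparisons with CASIN, and most other bars cross 0.

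A list of 65 further genes gives the wider setting: Pol I and III subunits under other symbols, Pol III factors, Pol II general factors, regulators of ribosomal DNA, rRNA processing and mitochondrial transcription. None passed at a Benjamini-Hochberg adjusted p of 0.05 in any comparison (limma). At an unadjusted p of 0.05, 6 passed between young and aged HSCs (9.23%, against 5.33% of all genes), of which 3 were higher and 3 lower in young. Bdp1, a subunit of the Pol III initiation factor TFIIIB, had the lowest p of these: it was at the lowest value in 3 young samples and 2.21 in young replicate 4, against 4.86 to 8.19 in all 5 aged samples (difference -5.85, SE 1.28, limma, Benjamini-Hochberg adjusted p = 0.451). Cd3eap, a Pol I subunit, was above the lowest value in all 12 samples, with 2.03 to 7.85 in young, 1.46 to 2.85 in aged and 4.23 to 6.09 in aged CASIN-treated HSCs, and was 2.42 higher in young than in aged HSCs (SE 0.96, limma, Benjamini-Hochberg adjusted p = 0.764). In the comparison of aged CASIN-treated with aged HSCs, 3 of the 65 passed at the unadjusted p (4.62%, against 4.4% of all genes): Cd3eap and Snapc3 were higher and Fbl, which encodes the rRNA methyltransferase fibrillarin, was lower with CASIN. In that with young HSCs, 3 passed (4.62%, against 4.29% of all genes), of which Bdp1 and Gtf2e1 were higher and Snapc1 was lower with CASIN.

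Promoter sequence was available for 28 of the 34 genes (RefSeq, GRCm38.p6, 250 bases before to 50 after the start). That of Polr3b is shown because the gene was high in all treated samples and at the lowest value in all young samples. The 250 bases before its start lie at chr10:84622048-84622297 on the plus strand and are given 5′ to 3′, with an ETS motif that begins 11 bases before the start in capitals. This window has 42.4% GC and 8 CpG, the lowest GC share of the 28, whose median was 59.6% with 14 CpG against 52% and 6 over 27025 promoters.
Polr3b: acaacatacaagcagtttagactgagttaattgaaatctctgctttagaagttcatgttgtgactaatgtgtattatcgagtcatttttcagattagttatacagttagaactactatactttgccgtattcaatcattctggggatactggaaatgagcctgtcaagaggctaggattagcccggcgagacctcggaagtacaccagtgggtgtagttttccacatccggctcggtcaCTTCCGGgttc
Searched on both strands, the ETS motif (CCGGAAG) was in 7 of the 28 promoters (25%, against 7.05% of all promoters), those of Polr1c, Polr2f, Polr2j, Polr3b, Polr3g, Taf1a and Taf1c. The GC box (GGGCGG) was in 16 (57.1%, against 32.9%), the CCAAT box in 9 (32.1%, against 34.5%), the E-box (CACGTG) in 3 (10.7%, against 6.05%) and the TATA box (TATAAA) in 2 (7.14%, against 13%). The palindromic NRF1 motif was in none of the 28 and in 0.781% of all promoters. These are matches of letters in a window, and no binding was measured in these files.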

How the data were processed

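RNA-seq values of 12 samples were analysed, 4 of young HSCs, 5 of aged HSCs and 3 of aged HSCs treated with CASIN. Libraries were amplified from pooled cells with oligo dT and selective primers. The authors trimmed and filtered the reads, aligned them to mm10 with TopHat and processed them with Cufflinks, and deposited quantile-normalized log2 expression values for 22548 genes. The step from Cufflinks to these values, and the strand used in counting, are not given in the sources used here. Quantile normalization removes differences in total RNA between samples, and the depth is unknown, so the share of genes a sample has above its lowest value stands in for it.

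The values were used as deposited. Groups were taken from the labels. For differences, the two-sided moderated test of limma (version 3.58.1, R version 4.3.3) was run in 1 fit of all samples, with Benjamini-Hochberg adjustment over all 22548 genes. Thresholds were 0.05, adjusted and unadjusted. The fit was tested on the same values shuffled among the samples gene by gene, with a known shift added to some genes in the young samples. Shuffling removes differences in detection between groups, so how the fit behaves under them was not tested. Non-overlap of groups was scored after setting every value under the highest of the lowest values (0.67) to it. Values per sample are given for Polr1d and Polr1c, for the largest and second largest subunit of each polymerase, for genes at an unadjusted p under 0.05 and for genes above the lowest value in all samples. Of the 34 genes, 1 is counted but not reported by name here. The genes and lists were chosen with earlier results of these data known. Alternatives were filters, a pseudocount of 0.1 in place of 1, centring, sample weights, covariates, a 2-group fit and leaving out each sample; non-overlap on a common lowest value, the top 25% and the counts of 33 genes without Polr1d were added after seeing the data. Positions are from GENCODE M21, and figures used matplotlib 3.10.9 with Python 3.11.15.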

Additional observations from a re-analysis of the deposited data

Results flagged for a closer look

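Values of single samples far from the rest of their group were looked for in 24 groups of values (12 quantities in young and in aged samples), and 8 were found. The criterion gives about 1 in 20 by chance for normally spread values. That rate does not hold where samples tie at the lowest value, so nothing is read from the count of 8. A gene well above the lowest value in only 1 sample of a group tends to meet the criterion, because the other samples lie close together. This was so for Polr1d in young replicate 4 (2.03), Polr1c in aged replicate 4 (1.80), Polr1a in young replicate 3 (6.98) and Polr3a in young replicate 5 (7.17). Polr1a was also far above the rest of its group in aged replicate 0 (7.10). Polr1b was far below the rest of its group in aged replicate 5 (3.62), as was Polr2a in the same sample (3.24) and in young replicate 2 (0.67), where it was listed at the lowest value.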

How the results depend on the processing

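Limits: detection differs between groups and between treated samples, gene-level values cannot tell the Polr1d products apart, and 3 treated samples limit the precision. The differences of Polr1d and Polr3b with CASIN, of Polr2b between young and aged HSCs and of Polr2l between CASIN-treated and young HSCs kept their sign in every fit that tested them, whereas the median of the 34 genes changed sign in each comparison. Between young and aged HSCs, the count of the 34 genes at an unadjusted p of 0.05 was 2 with genes above the lowest value in at least 3 samples, with a pseudocount of 0.1 and with array weights, and 0 with genes above it in at least 6 samples, in which Polr2b is not tested, and in the fit of the 2 groups only. It was 0 to 2 when 1 sample was left out (0 without young replicate 2 or 5 or aged replicate 0 or 4, and 2 without aged replicate 3). The count at an adjusted p with CASIN against aged HSCs was 0 with either filter, the pseudocount of 0.1 and the 2-group fit, and 0 to 1 when 1 sample was left out (0 without aged replicate 0 or 3 or treated replicate 3), and that at an unadjusted p 2 to 3. Between aged CASIN-treated and young HSCs the adjusted count was 1, in place of 0, with 1 common lowest value and with array weights, and 0 to 1 when 1 sample was left out (1 without treated replicate 2), and the unadjusted count 2 to 4. The counts with CASIN include Polr1d and are a description; of the other 33 genes, 0 passed at an adjusted p in any of these fits. The adjusted count between young and aged HSCs was 0 in every fit that left out 1 sample. The difference of Polr1d with CASIN from aged HSCs was 6.59 with a pseudocount of 0.1 and 4.75 to 5.31 when 1 sample was left out. Centring on 2143 genes above the lowest value in all samples moved all differences between young and aged HSCs by 0.45, those of CASIN-treated against aged HSCs by 0.35 and against young HSCs by -0.10. The median of the 34 genes between young and aged HSCs became 0.42 when centred (0.44 for all genes) and 0.08 without young replicate 2. With CASIN against aged HSCs it was 0.69 over the genes above the lowest value in at least 6 samples, 0.71 with the pseudocount of 0.1, -0.12 with 1 common lowest value and -0.15 without treated replicate 1. Against young HSCs it was 1.17 over the genes above the lowest value in at least 6 samples and -0.14 without treated replicate 1.

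With the replicate number as a block, the count of the 34 genes at an unadjusted p was 0 for young against aged HSCs and 1 for CASIN-treated against aged HSCs, and the adjusted count in the latter was 0. The medians with CASIN were then -0.33 against aged and -0.15 against young HSCs. Deviations of the 8 pairs of samples with the same number correlated at -0.033 to 0.0576. The highest was that of aged and treated replicate 2, above the 0.0332 of the highest pair with different numbers. Such low correlations cannot decide whether samples with the same number share a day or animals, which the labels do not give. Polr2b between young and aged HSCs no longer passed at an unadjusted p when centred (-2.31), with the share of genes above the lowest value as a covariate (-1.86), in the 2-group fit or with the block (-1.92), and Polr2l between CASIN-treated and young HSCs when centred (1.80), with either filter or with the block (1.59). The count of the 34 genes between young and aged HSCs was still 1 when centred and with that covariate. It was also 1 without young replicate 3 or 4 or aged replicate 2. Another gene than Polr2b therefore passed in these fits. Where counts and p-values moved, the cause was not tested.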
